A study of Rattus norvegicus with 19 samples.

Results

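Hearts of rats with established heart failure with preserved ejection fraction (HFpEF) that had received vehicle alone, the untreated group, were compared with control hearts taken at the same time, week 9. The 6 libraries were chosen by the titles of their samples, 3 untreated and 3 control 9w, of 19 libraries in the series. The study induced HFpEF in Sprague–Dawley rats and then treated them with empagliflozin (EMPA), an SGLT2 inhibitor, pirfenidone (PFD), an antifibrotic drug, or both, and sequenced RNA of the left ventricle. The rats were 24 weeks old at the start, and the labels call their strain Wildtype. Untreated rats drank water with 0.5 g/L of L-NAME, which blocks the enzymes that make nitric oxide, and ate a high-fat diet with 60% of kilocalories from lard for 5 weeks, and were then gavaged with phosphate-buffered saline for 4 weeks. Control 9w rats were given chow and no L-NAME. Hearts of the HFpEF group, taken at week 5 straight after induction, and of control 5w served to test whether an effect at week 9 differed from that at week 5. The labels and the study's methods end the induction at week 5, while its discussion describes one of 9 weeks, so whether L-NAME and the high-fat diet went on after week 5 is uncertain. The sources used here do not give whether control rats were gavaged or the time of day at which the hearts were taken. The labels give the sex of each of these hearts as male and say elsewhere that every group had as many females as males, while the study's methods took RNA from males.

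In HFpEF the ventricle ejects a normal share of its blood but relaxes and fills poorly, and the model joins a loss of nitric oxide with a high intake of fat. Heart muscle draws most of its energy from fatty acids burned in mitochondria, and fibroblasts, endothelial cells and leukocytes between the muscle cells take part in its stiffening. Cardiac cells also run a circadian clock, in which the activators CLOCK and BMAL1 (gene Arntl) drive the PER and CRY repressors, and they adjust cholesterol synthesis through sterol-sensing transcription factors.

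The total count was 8141045, 7803050 and 9409670 in control 9w replicates 1, 2 and 3, and 9951011, 10142209 and 9640990 in untreated replicates 1, 2 and 3. Levels are given as CPM, each gene's count scaled to 1000000 counts of its library after adjustment by the trimmed mean of M values (TMM), in the order of replicates 1, 2 and 3. Fold changes are untreated minus control 9w on the log2 scale, with standard errors (SE) and with p-values from edgeR's quasi-likelihood test adjusted by Benjamini-Hochberg over the 12388 tested genes of the 17455 in the files. A gene was called when its adjusted p was under 0.05, and a differentially expressed gene (DEG) also had a fold change of at least 2. "Rose" and "fell" are used of called genes. Intervals and floors, the latter at 3 counts per library, cover counting error only.

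The compared groups were also split by sex-linked genes. The counts of Eif2s3y, a gene of the Y chromosome, were 654, 613 and 741 in control 9w and 0, 0 and 0 in untreated, at least 255-fold lower, though not called (adjusted p = 0.0552, edgeR with Benjamini-Hochberg). The symbol Ddx3, which in the GRCr8 gene table is both a gene of its own and another name of Ddx3y on the Y chromosome, had 1348, 1338 and 1468 counts against 0, 0 and 0, at least 528-fold lower. The files also hold Ddx3y as a symbol of its own, chosen here after its values were seen, which was low throughout and went the other way, with 5, 3 and 9 counts against 11, 17 and 11, and was not called. LOC100911498 had 3, 1 and 4 counts in control 9w and 13032, 26816 and 14759 in untreated, and Eif2s3, whose relative on the Y chromosome is Eif2s3y, rose by 0.91 (SE 0.19). The X-linked Ddx3x had 562, 524 and 586 CPM against 598, 743 and 667 CPM and Usp9x had 318, 352 and 325 CPM against 275, 303 and 273 CPM, and neither was called. The groups did not overlap in the 7 tested genes of this list, 4 higher and 3 lower in untreated. All 3 hearts of a group lay on the same side in Eif2s3y, Ddx3, LOC100911498 and Eif2s3, so the disease and this split cannot be told apart in the 6 libraries. Over all 19 libraries, Eif2s3y and Ddx3 were at 0 in untreated, PFD and HFpEF replicates 1 and 3, the same libraries in which LOC100911498 was high. By the Y-linked Eif2s3y, the untreated hearts read as female and the control 9w hearts as male, while the labels call all of them male. The sex of the rats was not tested further. With a term for the presence of Eif2s3y counts added to the model of all 19 libraries, 2 genes were called in place of 220. That term can be estimated from the HFpEF hearts alone, because every other group held either only libraries with Eif2s3y counts or only libraries without them.

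The RT1 genes, which form the rat's major histocompatibility complex and present peptides to T cells, differed in part. Of 30 tested RT1 genes 5 rose and 2 fell, where 0.589% of all tested genes rose and 1.19% fell, and the groups overlapped in 14, did not in 9 that were higher and did not in 7 that were lower. RT1-A2 had 24.9, 25.5 and 22.2 CPM in control 9w and 80.6, 73.9 and 83.03 CPM in untreated (log2 fold change 1.71, SE 0.32, adjusted p = 0.0236, edgeR with Benjamini-Hochberg). RT1-CE14 had 1.92, 1.11 and 1.296 CPM against 7.81, 9.09 and 8.43 CPM (log2 fold change 2.54, SE 0.48). In the other direction, RT1-CE10 had 44.2, 50.9 and 33.4 CPM against 15.6, 15.3 and 25.4 CPM, and RT1-S3 had 308, 326 and 269 CPM against 177, 192 and 179 CPM. Both fell, by 1.19 (SE 0.23) and 0.72 (SE 0.14) on the log2 scale, and no control heart overlapped an untreated heart in any of these 4 genes. RT1-CE5, chosen after its values were seen, rose by 1.47 (SE 0.31). The other RT1 genes that rose, chosen in the same way, were RT1-T24-1, with 11, 14 and 15 counts against 81, 77 and 74 (log2 fold change 2.33, SE 0.51), and RT1-N2, with 0, 0 and 0 counts against 8, 13 and 7. Some RT1 genes also differed between the control groups. RT1-A2 had 947, 1479 and 1357 counts in control 5w against 221, 207 and 223 in control 9w, and 918 and 829 in EMPA. RT1-N2 had 16, 19 and 11 counts in control 5w. RT1-CE16 went the other way, with 1, 0 and 0 counts in control 5w and 922, 825 and 913 in control 9w. The cause was not tested. RT1 genes are near-identical copies of one another, several overlap in the GRCr8 gene table, and the overlap mode and strand setting of the counting are not given in the sources used here, so single members are uncertain. Of the 30 tested genes of antigen presentation, 2 rose and 2 fell (0.589% and 1.19% of all genes). Their median log2 fold change was 0.20, and 0.30 and 0.04 without control 9w replicate 2 or 3.

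Some hearts stood apart in their mix of cells or tissue. Across the tested genes, untreated replicates 1 and 3 lay at a distance of 47.9 (Euclidean, on log2 CPM), while replicate 2 lay 97.6 and 89.7 from them and nearer to control 9w replicates 1 and 3 (76.8 and 73.2). Among the controls, replicates 2 and 3 lay 81.97 apart, and replicate 1 lay 57.1 and 49.8 from them. The 12 ventricular cardiomyocyte markers summed to 84824, 22139 and 78249 CPM in untreated replicates 1, 2 and 3 and to 45392, 53391 and 47359 CPM in control 9w. Untreated replicate 2 was thus below, and replicates 1 and 3 above, each control heart, and the most abundant marker, Myh6, a myosin heavy chain, had 19379, 7239 and 12557 CPM against 9613, 10731 and 11269.5 CPM in control 9w. The 17 fibroblast markers summed to 9887, 18279 and 8848 CPM in untreated against 10253, 7488 and 10384 CPM in control 9w, with the actin-binding gene Gsn the most abundant. The 19 macrophage and monocyte markers summed to 661, 1287 and 701 CPM against 638, 525 and 700.0 CPM. Untreated replicate 2 had the highest sum of the 6 hearts in both lists. The 16 atrial markers, led by Nppa, summed to 2558, 17154 and 3039 CPM in untreated and to 7908, 2650 and 27495 CPM in control 9w. Atrial levels were thus high in untreated replicate 2 and control 9w replicate 3, and Nppa itself ran from 18.9 CPM in untreated replicate 1 to 16876 CPM in control 9w replicate 3. No marker of these 4 lists was at 0 in all 6 hearts. Of the 16 atrial markers, 0 were called with all hearts and 5 were lower without untreated replicate 2 (3.90% of all genes), with medians of −0.52 and −1.46. What the differences between hearts contribute to the results was not tested, and many results are therefore given with and without untreated replicate 2. In bulk tissue, fewer cells of a type and less RNA per cell cannot be told apart.

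**Figure D1:**
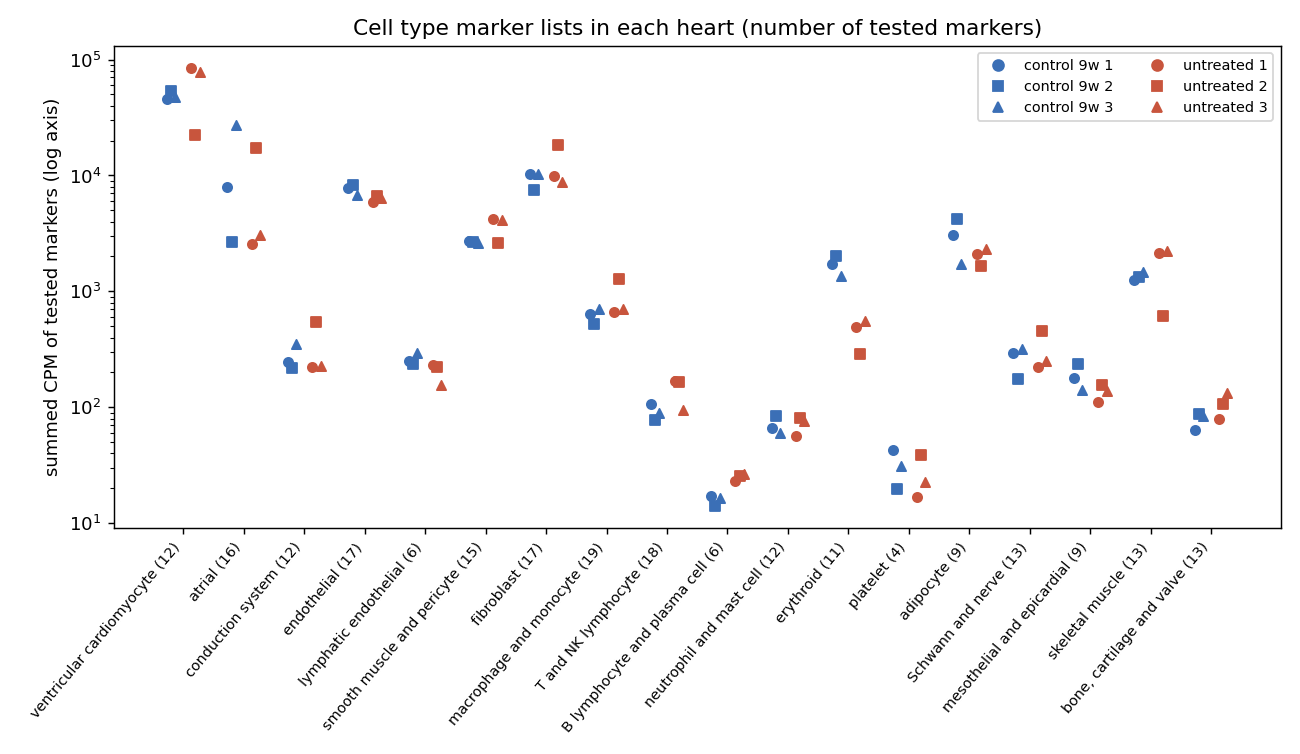
Summed level of the tested markers of 18 cell type lists in each of the 6 hearts (CPM, log axis), with control 9w in blue, untreated in red and replicates 1, 2 and 3 as circle, square and triangle. Untreated replicate 2 has the lowest ventricular cardiomyocyte sum (22139) and the highest fibroblast sum (18279), and in the erythroid list all control hearts (1347 to 2023) lie above all untreated hearts (291 to 552).

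Besides the sex-linked genes, the lists with 3 or more called members were those of the clock, erythroid cells, the interferon response, cholesterol synthesis, immediate early genes and antigen presentation. In all, 113 of 12388 tested genes were DEGs (0.912%), 42 higher and 71 lower in untreated. By adjusted p alone, 220 genes were called, 73 higher (0.589% of tested genes) and 147 lower (1.19%), and 2259 genes had an unadjusted p under 0.05. The median log2 fold change of all tested genes was 0.01. In 112 of the 113 DEGs, no untreated heart lay within the range of the controls. Over all tested genes, the untreated hearts lay wholly above the controls in 1174 (9.48%) and wholly below them in 1676 (13.5%). The unadjusted p was under 0.05 in 991 higher (8.0%) and 1268 lower genes (10.2%), DESeq2 called 2.21% of all genes higher and 4.44% lower, and limma-voom 20.7% and 19.7%. Counts of list members are set against these shares.

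Without untreated replicate 2, 12342 genes were tested and 1015 were called, 534 higher (4.33%) and 481 lower (3.90%), with 413 DEGs, of which 61.5% were higher against 37.2% with all hearts. Of the 220 genes called with all hearts, 215 were still called. Among the called genes named here, Dgkg was not called without that heart, and the others were. The number of DEGs was 14 without untreated replicate 1, 28 without replicate 3, and 21, 7 and 118 without control 9w replicates 1, 2 and 3. Of the 220 genes, 16 were still called without untreated replicate 1, 34 without replicate 3, and 25, 8 and 165 without control 9w replicates 1, 2 and 3. The single calls given here are thus mostly lost without untreated replicate 1 or 3 or control 9w replicate 1 or 2, and 8 genes were called in each of the 6 fits that left out 1 heart.

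**Figure D2:**
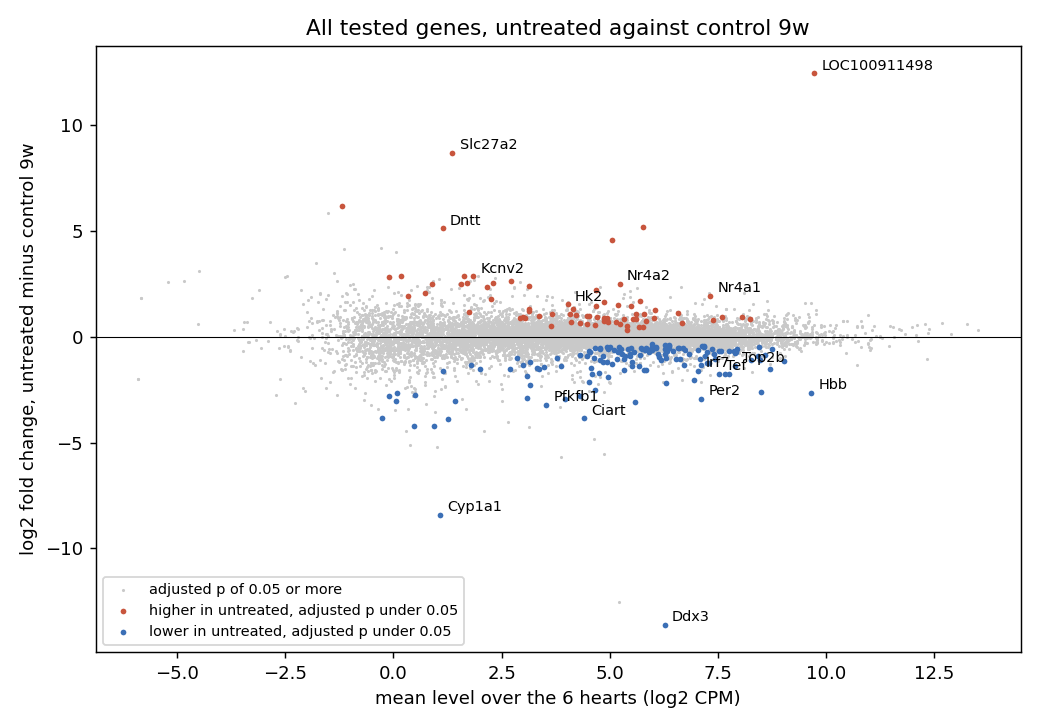
Log2 fold change (untreated minus control 9w) against mean level over the 6 hearts (log2 CPM) for the tested genes, with called genes in red (73 higher) and blue (147 lower) and the others in gray. Values of Slc27a2, Cyp1a1 and Ddx3, at 0 counts in 1 group, are fitted values that depend on the prior count, and the highest point is LOC100911498.

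The 8 genes called whichever heart was left out were Top2b, Bcl6, Cdk17, Gstz1, Nr4a2, Sox17, Pfkfb1 and Il9r, of which the first 4 were chosen after their values were seen. Top2b, the DNA topoisomerase of non-dividing cells, had 353, 374 and 294 CPM in control 9w and 133, 143 and 122 CPM in untreated. Its fall of 1.36 (SE 0.11) had the lowest adjusted p of the comparison (3.34e-05, edgeR with Benjamini-Hochberg), and was 1.42 without untreated replicate 2. Bcl6, a transcriptional repressor, had 67.8, 47.1 and 65.4 CPM against 18.4, 26.1 and 16.3 CPM, and fell by 1.56 (SE 0.20). Gstz1, an enzyme of tyrosine breakdown, had 98.4, 77.1 and 83.3 CPM against 35.6, 24.5 and 26.9 CPM, and fell by 1.57 (SE 0.23). Every untreated heart lay below every control heart in these 3 genes. Cdk17, a cyclin-dependent kinase, fell by 1.05 (SE 0.15), from 121, 146 and 107 CPM to 50.1, 60.97 and 69.1 CPM. Il9r, the receptor of interleukin 9, had 6.54, 3.81 and 3.89 CPM in control 9w and 0.739, 0.568 and 0.421 CPM in untreated, and fell by 3.02 (SE 0.46). In the GRCr8 gene table Cdk17 overlaps Elk3 and Gstz1 overlaps Pomt2, so their counts could hold reads of the neighbor.

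Of 20 tested genes of the circadian clock and its output, 5 fell in untreated hearts and 1 rose (1.19% and 0.589% of all genes). The hearts did not overlap in 12 members that were lower and 4 that were higher (13.5% and 9.48% of all genes), and the median log2 fold change was −0.73, against 0.01 over all genes. Per2, a core repressor of the clock, had 239.7, 286 and 210.1 CPM in control 9w and 20.2, 45.8 and 29.4 CPM in untreated. Ciart, another clock repressor, had 40.4, 39.7 and 39.2 CPM against 2.64, 2.11 and 3.48 CPM. Every untreated heart was far below the lowest control heart in both genes, which fell by 2.94 (SE 0.59, adjusted p = 0.0254) and 3.86 (SE 0.70, adjusted p = 0.0199, edgeR with Benjamini-Hochberg). Per3, a further period gene, had 130.2, 136 and 122 CPM against 25.00, 31.8 and 28.3 CPM and fell by 2.18 (SE 0.40). Tef and Dbp encode transcription factors through which the clock drives its output. Tef had 295, 305 and 249 CPM against 93.9, 70.1 and 88.9 CPM, and fell by 1.75 (SE 0.26). Dbp had 207, 203 and 183 CPM against 55.6, 41.1 and 46.8 CPM, and fell by 2.05 (SE 0.48).

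The member that rose was Nfil3, a repressor that binds the same DNA element as Dbp and Tef, with 12.2, 13.8 and 10.7 CPM in control 9w and 26.4, 18.02 and 30.03 CPM in untreated (log2 fold change 1.02, SE 0.22). Arntl had 14.1, 17.5 and 16.5 CPM against 70.3, 75.99 and 71.02 CPM, with no overlap between the groups, and its partner gene Npas2 had 23.7, 19.2 and 24.6 CPM against 50.01, 109.9 and 50.4 CPM. Neither was called, with log2 fold changes of 2.18 (SE 0.65, adjusted p = 0.08797) and 1.64 (SE 0.46, adjusted p = 0.0744, edgeR with Benjamini-Hochberg). Nr1d1, which represses Arntl, had 154, 151 and 142 CPM against 121, 79.4 and 103 CPM and was not called, and it overlaps Thra in the GRCr8 gene table. Dbp, Nfil3, Arntl, Npas2 and Nr1d1 were chosen after their values were seen. Without untreated replicate 2 the list had 7 members lower and 2 higher (3.90% and 4.33% of all genes) and a median of −0.67, and Per2 fell by 3.31 while Ciart fell by 3.70. Tef was called in 5 of the 6 fits without 1 heart, Per2, Per3 and Ciart in 2 and Dbp and Nfil3 in 1.

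Promoters of these genes were read because 6 of the members were called. RefSeq promoter windows (GRCr8, 250 bases before to 50 after the gene start) matched 15 of the 20 tested clock genes. The E-box CACGTG, the element of CLOCK and BMAL1, was in 4 of the 15 (Nr1d1, Tef, Bhlhe40 and Ciart) and in 6.42% of all 33469 windows. The D-box, searched as TTATGTAA or TTACGTAA on both strands, is the element of Dbp, Tef and Nfil3. It was in 1 of the 15, that of Per2, and in 1.01% of all windows. A match describes the letters of the window and does not show binding. The windows of 3 genes that fell are shown 5′ to 3′ with the motif in capitals, for Ciart at chr2:186112197-186112496 (strand −, 3 matches), for Tef at chr7:115206577-115206876 (strand +) and for Per2 at chr9:99496944-99497243 (strand −).
Ciart: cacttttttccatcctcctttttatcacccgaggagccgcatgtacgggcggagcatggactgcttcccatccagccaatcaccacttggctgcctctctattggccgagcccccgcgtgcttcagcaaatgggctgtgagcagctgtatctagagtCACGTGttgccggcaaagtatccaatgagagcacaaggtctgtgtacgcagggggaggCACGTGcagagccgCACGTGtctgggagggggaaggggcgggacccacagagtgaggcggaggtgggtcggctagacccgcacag
Tef: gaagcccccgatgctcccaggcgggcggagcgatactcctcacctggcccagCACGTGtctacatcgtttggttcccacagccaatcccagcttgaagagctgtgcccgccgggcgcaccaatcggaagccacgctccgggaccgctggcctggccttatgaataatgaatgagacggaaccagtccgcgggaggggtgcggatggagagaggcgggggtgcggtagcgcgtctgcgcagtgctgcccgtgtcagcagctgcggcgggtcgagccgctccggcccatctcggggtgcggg
Per2: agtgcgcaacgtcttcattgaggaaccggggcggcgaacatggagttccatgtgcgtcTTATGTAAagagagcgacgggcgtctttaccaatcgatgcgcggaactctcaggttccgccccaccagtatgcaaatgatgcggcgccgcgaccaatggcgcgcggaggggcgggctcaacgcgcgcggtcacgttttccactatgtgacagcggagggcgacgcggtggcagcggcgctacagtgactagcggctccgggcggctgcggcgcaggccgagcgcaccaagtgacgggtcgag

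Of 22 tested genes of cholesterol synthesis and uptake, 5 rose and 0 fell (0.589% and 1.19% of all genes). Untreated hearts lay wholly above the controls in 13 members and wholly below in 0 (9.48% and 13.5% of all genes). The median log2 fold change was 0.57. At an unadjusted p under 0.05 in edgeR, 14 members were higher and 0 lower (8.0% and 10.2% of all genes), DESeq2 called 8 higher and 0 lower (2.21% and 4.44%), and limma-voom called 17 higher and 0 lower (20.7% and 19.7%). Insig1, which holds back the sterol-sensing factors when sterols are plentiful, had 56.96, 52.4 and 72.7 CPM in control 9w and 144, 108 and 143 CPM in untreated. The lowest untreated heart stood above the highest control heart, and Insig1 rose by 1.11 (SE 0.17, adjusted p = 0.00888, edgeR with Benjamini-Hochberg). Msmo1, an enzyme of the pathway, had 21.5, 20.05 and 25.2 CPM against 38.4, 37.6 and 40.04 CPM, and rose by 0.79 (SE 0.18). Cyp51, another of its enzymes, chosen after its values were seen, had 33.2, 28.8 and 37.99 CPM against 60.3, 47.9 and 70.7 CPM, and rose by 0.84 (SE 0.20). The groups did not overlap in either enzyme. Without untreated replicate 2, 8 members were higher and 0 lower (4.33% and 3.90% of all genes), and the median was again 0.57. Insig1 was called in 5 of the 6 fits without 1 heart, Msmo1 in 2 and Cyp51 in 1.

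**Figure D3:**
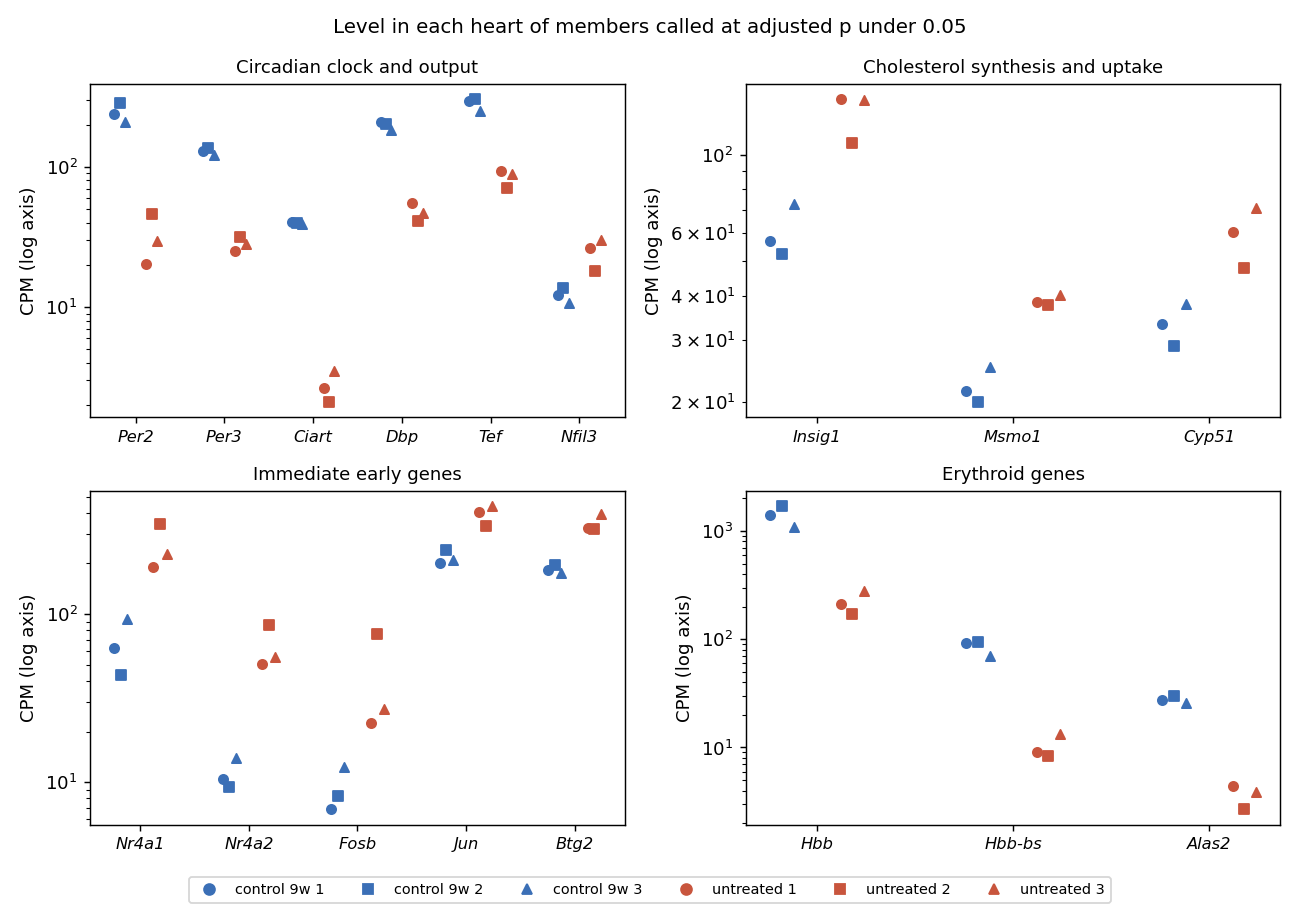
Level of called clock, cholesterol, immediate early and erythroid genes in each of the 6 hearts (CPM, log axis), with control 9w in blue, untreated in red and replicates 1, 2 and 3 as circle, square and triangle. The groups do not overlap in any gene shown, and Per2, for example, is at 210.1 CPM or more in controls and at 45.8 CPM or less in untreated.

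Immediate early genes, which cells switch on within minutes of a stimulus, had 5 of 31 tested members higher and 0 lower (0.589% and 1.19% of all genes), with a median of 0.28 (0.13 without untreated replicate 2). By edgeR's unadjusted p, 12 were higher and 4 lower (8.0% and 10.2% of all genes), DESeq2 called 10 higher and 2 lower (2.21% and 4.44%), and limma-voom 15 higher and 6 lower (20.7% and 19.7%). Nr4a2, a nuclear receptor induced by many signals, had 10.5, 9.35 and 13.96 CPM in control 9w and 50.2, 86.4 and 55.6 CPM in untreated. Its relative Nr4a1 had 62.6, 43.2 and 93.1 CPM against 190.4, 342 and 227 CPM. Both were highest in untreated replicate 2, and all untreated hearts were above the controls. They rose by 2.50 (SE 0.31, adjusted p = 0.00435) and 1.93 (SE 0.32, adjusted p = 0.0118, edgeR with Benjamini-Hochberg), and by 2.23 and 1.65 without that heart. Jun, a subunit of the factor AP-1, had 201, 239 and 209.6 CPM against 402, 333 and 437 CPM (log2 fold change 0.85, SE 0.15). Fosb, another AP-1 subunit, had 6.88, 8.24 and 12.4 CPM against 22.6, 76.6 and 27.4 CPM, and rose by 2.20 (SE 0.48) with untreated replicate 2 and by 1.44 without it. Btg2, an antiproliferative gene, had 182, 195 and 176 CPM against 325, 322 and 392 CPM (log2 fold change 0.91, SE 0.16). Fosb and Btg2 were chosen after their values were seen.

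Interferon-response genes, which limit viral replication, had 3 of 37 tested members lower and 0 higher (1.19% and 0.589% of all genes), and 1 higher without untreated replicate 2. The groups did not overlap in 17 members that were lower and 4 that were higher (13.5% and 9.48% of all genes), and the median was −0.56 (−0.50 without untreated replicate 2 and −0.33 without control 9w replicate 2). At an unadjusted p under 0.05 in edgeR 18 were lower and 3 higher (10.2% and 8.0%), DESeq2 called 11 lower and 1 higher (4.44% and 2.21%), and limma-voom called 18 lower and 6 higher (19.7% and 20.7%). Irf7, which drives interferon transcription, had 220.4, 245 and 129 CPM in control 9w and 58.98, 58.1 and 79.1 CPM in untreated. Irf9, a subunit of the factor that acts below the interferon receptor, had 74.7, 88.7 and 60.7 CPM against 44.00, 45.8 and 47.7 CPM. Oas2, a sensor of double-stranded RNA, had 12.97, 19.2 and 12.2 CPM against 3.17, 2.598 and 3.48 CPM. All 3 control hearts lay above all untreated hearts in each gene, with control 9w replicate 3 the lowest control. Irf7 fell by 1.60 (SE 0.32, adjusted p = 0.0247), Irf9 by 0.70 (SE 0.14) and Oas2 by 2.26 (SE 0.37, adjusted p = 0.0118, edgeR with Benjamini-Hochberg). Without 1 heart, Oas2 was called in 4 of 6 fits and the other pair in 2.

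Other immune lists had few calls by edgeR. Of 33 tested inflammatory cytokines and chemokines, 1 rose and 0 fell (2 higher and 1 lower without untreated replicate 2), with a median of 0.69 that went to 0.31 without that heart. EdgeR's unadjusted p was under 0.05 in 9 higher and 2 lower members (8.0% and 10.2% of all genes), DESeq2 called 3 higher and 1 lower (2.21% and 4.44%), and limma-voom 14 higher and 3 lower (20.7% and 19.7%). The gene was Ccl22, a chemokine of dendritic cells and macrophages, with 3, 1 and 2 counts in control 9w and 14, 27 and 12 in untreated, a ratio of CPM of 7.63 (95% counting interval 3.28 to 21.7). Ccl2, a monocyte chemokine, had 5.53, 7.63 and 12.5 CPM against 18.6, 23.5 and 29.2 CPM and was not called. Of 26 NF-kB genes 1 fell and 0 rose, while the median was 0.26, with 19 members above 0, and the groups did not overlap in 7 that were higher and 3 that were lower (9.48% and 13.5% of all genes). Without untreated replicate 2 the median was 0.13, and 2 were higher and 2 lower. By the unadjusted p (8.0% and 10.2% of all genes) and by limma-voom (20.7% and 19.7%) 8 were higher and 3 lower, and DESeq2 called 1 higher and 2 lower (2.21% and 4.44%). The gene that fell was Nfkbia, the inhibitor that holds NF-kB in the cytoplasm, with 765, 863 and 527 CPM against 290.2, 355 and 323 CPM and a fall of 1.15 (SE 0.24). Of 18 T and NK lymphocyte markers, 1 rose, the T cell receptor subunit Cd3e, with 1.13, 0.492 and 0.997 CPM against 6.75, 5.36 and 2.95 CPM (log2 fold change 2.50, SE 0.57). By edgeR's unadjusted p, 8 of these markers were higher and 0 lower (8.0% and 10.2% of all genes). DESeq2 called 5 higher and 0 lower (2.21% and 4.44%), and limma-voom 5 higher and 2 lower (20.7% and 19.7%). The groups did not overlap in 8 of these markers that were higher and 1 that was lower (9.48% and 13.5% of all genes), the list median was 0.91 (0.82 without untreated replicate 2), and the summed level was 107, 78.2 and 88.5 CPM in control 9w and 168, 165 and 94.4 CPM in untreated, where untreated replicate 3 lay below control 9w replicate 1. Cd8a, a co-receptor of cytotoxic T cells, had a log2 fold change of 1.90 (SE 0.50) and was not called. Cd5, a surface receptor of T cells, had 2.40 (SE 0.67) and was not called with all hearts but was without untreated replicate 2 (2.55).

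Erythroid genes were lower in untreated hearts, with 3 of 11 tested members called lower and 1 higher (1.19% and 0.589% of all genes), 8 wholly below the controls and 1 wholly above (13.5% and 9.48%), and a median of −2.54 (−2.35 without untreated replicate 2). The tested markers summed to 1722, 2023 and 1347 CPM in control 9w and to 495, 291 and 552 CPM in untreated, and 1 of the 16 listed genes in the files was at 0 in all 6 hearts. Hbb, a beta globin and the most abundant member, had 1404, 1688 and 1077 CPM against 213, 170.5 and 279 CPM. Hbb-bs, a second beta globin, had 92.2, 95.2 and 70.2 CPM against 9.07, 8.28 and 13.3 CPM. Alas2, the first enzyme of heme synthesis in red cell precursors, had 27.2, 30.01 and 26.02 CPM against 4.43, 2.68 and 3.899 CPM. The groups were wide apart in all 3, which fell by 2.65 (SE 0.59, adjusted p = 0.0363), 3.07 (SE 0.63) and 2.92 (SE 0.63, adjusted p = 0.0318, edgeR with Benjamini-Hochberg). Globin genes are close copies, so the share of each is uncertain, and the alpha globin Hba-a1, chosen after its values were seen, had 50.6, 58.2 and 42.4 CPM against 7.17, 6.66 and 11.4 CPM and was not called (adjusted p = 0.0572, same test). Rhd, a blood group gene of red cells that is not in the list, had 26, 18 and 28 counts against 0, 1 and 3, a ratio of CPM, control 9w over untreated, of 20.8 (95% counting interval 7.79 to 78.5).

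Of 17 endothelial markers, 1 was called lower (1.19% of all genes), 16 had a log2 fold change below 0, and 6 lay wholly below and 0 wholly above the controls (13.5% and 9.48%), with a median of −0.33 with or without untreated replicate 2. Their sums were 7824, 8289 and 6771 CPM in control 9w and 5907, 6714 and 6342 CPM in untreated, and the most abundant, the phosphatase gene Ptprb, had 1122, 1225 and 982 CPM against 958, 889 and 943 CPM. The called gene was Sox17, a transcription factor of arterial endothelium, with 247, 251 and 148 CPM against 88.5, 91.6 and 89.8 CPM. Untreated hearts varied little in Sox17 and all lay below control 9w replicate 3, and it fell by 1.26 (SE 0.17, adjusted p = 0.00678, edgeR with Benjamini-Hochberg). Nos3, the endothelial nitric oxide synthase that L-NAME inhibits, was chosen after its values were seen. It had 447, 515 and 423 CPM in control 9w and 269.9, 347 and 359 CPM in untreated, without overlap, and was not called (log2 fold change −0.51, SE 0.29, adjusted p = 0.376, same test), and it overlaps Atg9b in the GRCr8 gene table. None of the 27 tested genes of nitric oxide and cGMP signaling was called by edgeR with all hearts, and 1 was lower without untreated replicate 2. At an unadjusted p under 0.05, 1 was higher and 3 lower, DESeq2 called 0 higher and 1 lower, and limma-voom 2 higher and 8 lower (20.7% and 19.7% of all genes).

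Counts of called genes of energy metabolism and contraction depended on untreated replicate 2, as did those of all genes, of which 0.589% were called higher with it and 4.33% without it. Of 30 tested genes of fatty acid uptake and oxidation, edgeR called 0 in either direction with all hearts and 15 higher and 0 lower without that heart, and the median went from 0.79 to 1.24. At an unadjusted p under 0.05, 7 were higher and 1 lower (8.0% and 10.2% of all genes), DESeq2 called 6 higher and 1 lower (2.21% and 4.44%), and limma-voom 22 higher and 1 lower (20.7% and 19.7%). The thioesterase Acot2, which releases free fatty acids from coenzyme A in mitochondria, had 57.4, 70.3 and 55.2 CPM in control 9w and 423, 53.9 and 278 CPM in untreated. Untreated replicate 2 lay below the lowest control and the other untreated hearts lay above the highest. The log2 fold change was 2.04 (SE 0.66, adjusted p = 0.112) with that heart and 2.52 without it (adjusted p = 0.0196, edgeR with Benjamini-Hochberg). Its cytosolic relative Acot1 had 1.13, 0.861 and 0.897 CPM against 9.39, 1.14 and 3.79 CPM, with log2 fold changes of 2.28 (SE 0.62) and, without that heart, 2.76. Cpt1a, the gate for fatty acids into mitochondria in liver and a minor form in adult heart, had 144, 137 and 140.3 CPM against 103, 79.2 and 90.1 CPM and was not called with or without it.

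The tricarboxylic acid cycle behaved alike, with 0 of 29 tested genes called with all hearts, 12 higher and 0 lower without untreated replicate 2, and medians of 0.57 and 0.95. EdgeR's unadjusted p was under 0.05 in 6 higher and 1 lower (8.0% and 10.2% of all genes), DESeq2 called 0, and limma-voom called 27 higher and 1 lower (20.7% and 19.7%). Suclg2, a subunit of succinate-CoA ligase, had 90.5, 81.8 and 109.9 CPM against 215, 81.4 and 172 CPM, and its log2 fold change of 0.73 (SE 0.25) became 1.04 without that heart. Ogdh, the cycle's oxoglutarate dehydrogenase, had 1.01 (SE 0.34) and 1.33. Of 76 genes of oxidative phosphorylation, 0 were called with all hearts and 5 higher without that heart, a share near the 4.33% of all genes, with medians of 0.08 and 0.38. Here 3 were higher at an unadjusted p under 0.05 in edgeR, 0 by DESeq2 and 32 by limma-voom, and 0 were lower in each. Ndufs1, a subunit of complex I, had 219.6, 215 and 289 CPM in control 9w and 883, 154 and 683 CPM in untreated, and Sdha, of complex II, had 353, 334 and 407 CPM against 997, 272 and 771 CPM. In both, untreated replicate 2 lay below and replicates 1 and 3 above all controls, the same order as in the summed cardiomyocyte markers. The files hold 0 symbols of mitochondrially encoded transcripts, so the subunits made from mitochondrial DNA were not analysed here.

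Branched-chain amino acid breakdown had 0 of 16 genes called and 5 higher without untreated replicate 2 (4.33% of all genes), with medians of 0.40 and 0.74 (edgeR unadjusted 3 higher and 0 lower, DESeq2 0, limma-voom 12 higher and 0 lower, where the unadjusted p took in 8.0% of all genes as higher and limma-voom 20.7%). Ivd, isovaleryl-CoA dehydrogenase of leucine breakdown, had 80.3, 67.1 and 93.03 CPM against 215, 48.5 and 161 CPM. Of 31 sarcomere and Z-disc genes, 0 were called and 4 were higher without that heart, with medians of 0.37 and 0.79 (edgeR unadjusted 3 higher and 1 lower, DESeq2 0, limma-voom 20 higher and 1 lower). Smyd1, a muscle methyltransferase needed for sarcomere assembly, had 41.3, 44.9 and 39.7 CPM against 114, 31.99 and 86.5 CPM. Untreated replicate 2 was again the lowest of the 6 hearts in both genes. Of 31 heat shock genes, 0 were called and 7 were higher without it, with medians of 0.20 and 0.38 (edgeR unadjusted 5 higher and 1 lower, DESeq2 0 higher and 1 lower, limma-voom 17 higher and 2 lower). For sarcomere and heat shock genes alike, the shares of all genes were 4.33% higher and 3.90% lower without untreated replicate 2. With all hearts they were 8.0% and 10.2% unadjusted, 2.21% and 4.44% by DESeq2, and 20.7% and 19.7% by limma-voom.

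Glycolysis held calls that did not depend on that heart. Of 30 tested genes, 1 rose and 1 fell, and 8 were higher and 1 lower without untreated replicate 2 (4.33% and 3.90% of all genes), with medians of 0.46 and 0.70. Hk2, the insulin-responsive hexokinase of muscle, had 6.88, 6.76 and 11.4 CPM in control 9w and 30.9, 15.9 and 25.9 CPM in untreated, all above the highest control, and rose by 1.53 (SE 0.31, adjusted p = 0.0254, edgeR with Benjamini-Hochberg). Pfkfb1, which sets the level of an activator of glycolysis, had 22.3, 21.2 and 19.04 CPM against 2.005, 1.62 and 3.06 CPM. It fell by 3.23 (SE 0.45, adjusted p = 0.00678, same test) and by 3.04 without that heart, and overlaps Apex2 in the GRCr8 gene table. Of 20 hypoxia targets, 1 rose (Hk2) and 1 fell, Adm, which encodes the vasodilator adrenomedullin. Without untreated replicate 2, 5 of these targets were higher and 2 lower (4.33% and 3.90% of all genes), and the median went from 0.16 to 0.05. Adm had 44.4, 56.8 and 43.5 CPM against 22.4, 30.4 and 17.6 CPM and fell by 1.04 (SE 0.19). Egln3, an oxygen-sensing prolyl hydroxylase, had 62.6, 70.6 and 79.7 CPM against 294, 72.9 and 258 CPM, with log2 fold changes of 1.55 (SE 0.40, adjusted p = 0.0586) and 1.96 (adjusted p = 0.00573, edgeR with Benjamini-Hochberg) with and without untreated replicate 2.

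Matrix genes were not separated by the test. Over all genes, 8.0% were higher and 10.2% lower by edgeR's unadjusted p, 2.21% and 4.44% by DESeq2, and 20.7% and 19.7% by limma-voom. Of 21 tested collagen chains, 0 were called by edgeR, 1 was higher and 1 lower at an unadjusted p under 0.05, and DESeq2 called 0 higher and 1 lower and limma-voom 1 higher and 1 lower. The median was 0.20 with all hearts and −0.19 without untreated replicate 2. Col1a1, a chain of the main fibrillar collagen, had 325, 205 and 402 CPM in control 9w and 329, 893 and 331 CPM in untreated, and Col3a1 had 1449.6, 1023 and 1766 CPM against 1211, 3314 and 1371 CPM. Both were highest in untreated replicate 2, as were the summed fibroblast markers, a list that holds both genes. The other untreated hearts lay among the controls. The log2 fold changes of 0.74 (SE 0.84) and 0.48 (SE 0.72) became 0.09 and −0.13 without untreated replicate 2. Col4a3, a basement membrane chain, had −0.999 (SE 0.31) and was called lower without that heart (−1.26, adjusted p = 0.0388, edgeR with Benjamini-Hochberg). Among 40 other matrix and crosslinking genes, 0 were called (edgeR unadjusted 2 higher and 1 lower, DESeq2 1 higher and 1 lower, limma-voom 4 higher and 1 lower). P4ha2, a collagen prolyl hydroxylase, had −0.71 (SE 0.17) and was called lower without untreated replicate 2 (−0.83) or control 9w replicate 3 (−0.81), and the matricellular gene Thbs2 had 1.20 (SE 0.33). Of 30 matrix proteases and inhibitors, 0 were called (edgeR unadjusted 2 higher and 3 lower, DESeq2 0 higher and 2 lower, limma-voom 4 higher and 7 lower), and the protease inhibitor Timp4 had 179.6, 216 and 100.3 CPM against 70.1, 36.05 and 58.2 CPM and was called lower without control 9w replicate 3 (−1.85). Col1a1 and Col3a1 were chosen after their values were seen. In the GRCr8 gene table Col1a1 overlaps Sgca and Timp4 overlaps Syn2, so reads of the neighbor could be counted.

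Of 37 genes of TGF-beta and BMP signaling, which drives fibrosis, 1 rose and 0 fell (0.589% and 1.19% of all genes). Without untreated replicate 2, 1 was higher and 3 were lower (4.33% and 3.90% of all genes). Tgfbr2, the receptor subunit that binds the ligand, had 85.8, 64.2 and 89.8 CPM in control 9w and 129, 125 and 118 CPM in untreated, with no overlap, and rose by 0.63 (SE 0.14, adjusted p = 0.0381, edgeR with Benjamini-Hochberg). Of 17 fibroblast markers, 1 fell, the dipeptidase Dpep1, with 45.6, 39.6 and 26.3 CPM against 17.2, 7.55 and 8.64 CPM and a fall of 1.74 (SE 0.38). The list median was 0.46 with all hearts and −0.12 without untreated replicate 2. Of 22 fetal and hypertrophy genes, 0 were called by edgeR, with a median of −0.03 (2 higher and 1 lower unadjusted, DESeq2 0, limma-voom 6 higher and 4 lower, against 8.0% and 10.2% of all genes unadjusted and 20.7% and 19.7% by limma-voom). Without untreated replicate 2, 1 of them was higher and 1 lower, with a median of 0.09. Nppb, which encodes the stretch-induced natriuretic peptide BNP, had 184, 125 and 582 CPM against 140.2, 205 and 248 CPM, highest in control 9w replicate 3. Myh7, the slow myosin that returns in rodent hypertrophy, had 5114, 5299.9 and 4234 CPM against 5339, 866 and 10446 CPM, lowest in untreated replicate 2. The groups overlapped in both genes, which were chosen after their values were seen.

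Among potassium and sodium channels, 1 of 30 rose and 1 fell (0.589% and 1.19% of all genes). Without untreated replicate 2, 6 were higher and 1 lower (4.33% and 3.90% of all genes). Kcnd3, a channel of the transient outward current, had 155, 159.8 and 137 CPM in control 9w and 53.5, 70.96 and 53.6 CPM in untreated, and fell by 1.34 (SE 0.31). Kcnv2, a silent potassium channel subunit, had 0.902, 0.369 and 1.296 CPM against 4.22, 12.2 and 2.53 CPM, highest in untreated replicate 2, and rose by 2.85 (SE 0.61), or by 1.93 without that heart. It overlaps Pum3 in the GRCr8 gene table. Hcn4, the pacemaker channel, had 1.35, 0.369 and 2.49 CPM against 3.17, 4.303 and 9.69 CPM and was not called with all hearts (log2 fold change 1.97, SE 0.52), but was without untreated replicate 2 (2.14) and without control 9w replicate 3 (2.68). Among 29 calcium handling genes, 0 were called by edgeR (1 higher and 0 lower unadjusted, DESeq2 0, limma-voom 11 higher and 4 lower, against 8.0% and 10.2% of all genes unadjusted and 20.7% and 19.7% by limma-voom). Without untreated replicate 2, 1 of them was called higher and 0 lower.

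For protein kinase C and G-protein signaling, the pathway the study follows, 1 of 57 tested genes fell and 0 rose, with a median of 0.13, while 4 were higher and 0 lower without untreated replicate 2 (4.33% and 3.90% of all genes), with a median of 0.02. At an unadjusted p under 0.05 in edgeR 11 were higher and 3 lower (8.0% and 10.2% of all genes), DESeq2 called 5 higher and 2 lower (2.21% and 4.44%), and limma-voom 16 higher and 13 lower (20.7% and 19.7%). The gene was Dgkg, a diacylglycerol kinase, with 2.93, 3.57 and 3.49 CPM against 0.844, 0.812 and 1.58 CPM (log2 fold change −1.63, SE 0.39, adjusted p = 0.0464), and it was not called without untreated replicate 2 (adjusted p = 0.0584, edgeR with Benjamini-Hochberg). Rgs5, a brake on G-protein signals in pericytes, had 234, 186 and 244 CPM against 440.1, 321 and 393 CPM and was not called with all hearts but was 1 of the 4 called higher without that heart (0.91). The study reports changes of genes in this pathway with EMPA and PFD together against untreated, and for some at disease onset. It measured the activation of PKC and NF-kB in protein, which RNA levels do not show. Those of its genes that are given here were not called in untreated against control 9w. Prkce, the kinase isoform epsilon, had 8.12, 6.89 and 7.88 CPM in control 9w and 14.3, 8.93 and 10.9 CPM in untreated, all above the highest control, with a log2 fold change of 0.57 (SE 0.25, adjusted p = 0.237, same test). The groups overlapped in Camk2d (−0.30, SE 0.18), Prkaca (0.40, SE 0.27), Calm3 (0.35, SE 0.22), S100b (0.89, SE 0.95), Dgka (0.13, SE 0.16), Pld1 (0.04, SE 0.24), Pld2 (0.04, SE 0.17) and the chaperone gene Hsp90ab1 (0.28, SE 0.22). S100b had 3.72, 2.58 and 4.59 CPM against 2.53, 13.5 and 4.004 CPM, so its positive value rested on untreated replicate 2, and without that heart it was −0.16. S100b overlaps Dip2a in the GRCr8 genes, Dgka overlaps Pmel and Prkaca overlaps Smim46. Of 26 renin-angiotensin, endothelin and adrenergic genes, the adenylyl cyclase Adcy9 rose by 0.65 (SE 0.16) and Adcy4 fell by 0.74 (SE 0.18).

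Glucocorticoid targets had 1 of 21 members lower and 0 higher, with a median of −0.62 (−0.61 without untreated replicate 2), 12 members wholly below the controls and 2 wholly above (13.5% and 9.48% of all genes). By edgeR's unadjusted p, 10 were lower and 3 higher (10.2% and 8.0%), DESeq2 called 4 lower and 0 higher (4.44% and 2.21%), and limma-voom 11 lower and 3 higher (19.7% and 20.7%). Sgk1, a kinase induced by corticosteroids, had 479, 536 and 330.2 CPM in control 9w and 219.8, 229.8 and 275 CPM in untreated, and fell by 0.89 (SE 0.21). Cell cycle and replication genes had 1 of 40 members lower and 0 higher, with a median of −0.57 (−0.67 without untreated replicate 2). The groups did not overlap in 16 members that were lower and 1 that was higher (13.5% and 9.48% of all genes). Counts of lower members by the unadjusted p (5 lower and 1 higher) and limma-voom (9 lower and 2 higher) were near the shares of all genes, 10.2% and 19.7%, and DESeq2 called 1 lower and 0 higher. Ccne2, a cyclin of the entry into DNA replication, had 35.6, 38.7 and 36.8 CPM against 23.00, 27.8 and 23.9 CPM, and fell by 0.57 (SE 0.11). It overlaps Ints8 in the GRCr8 gene table.

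**Figure D4:**
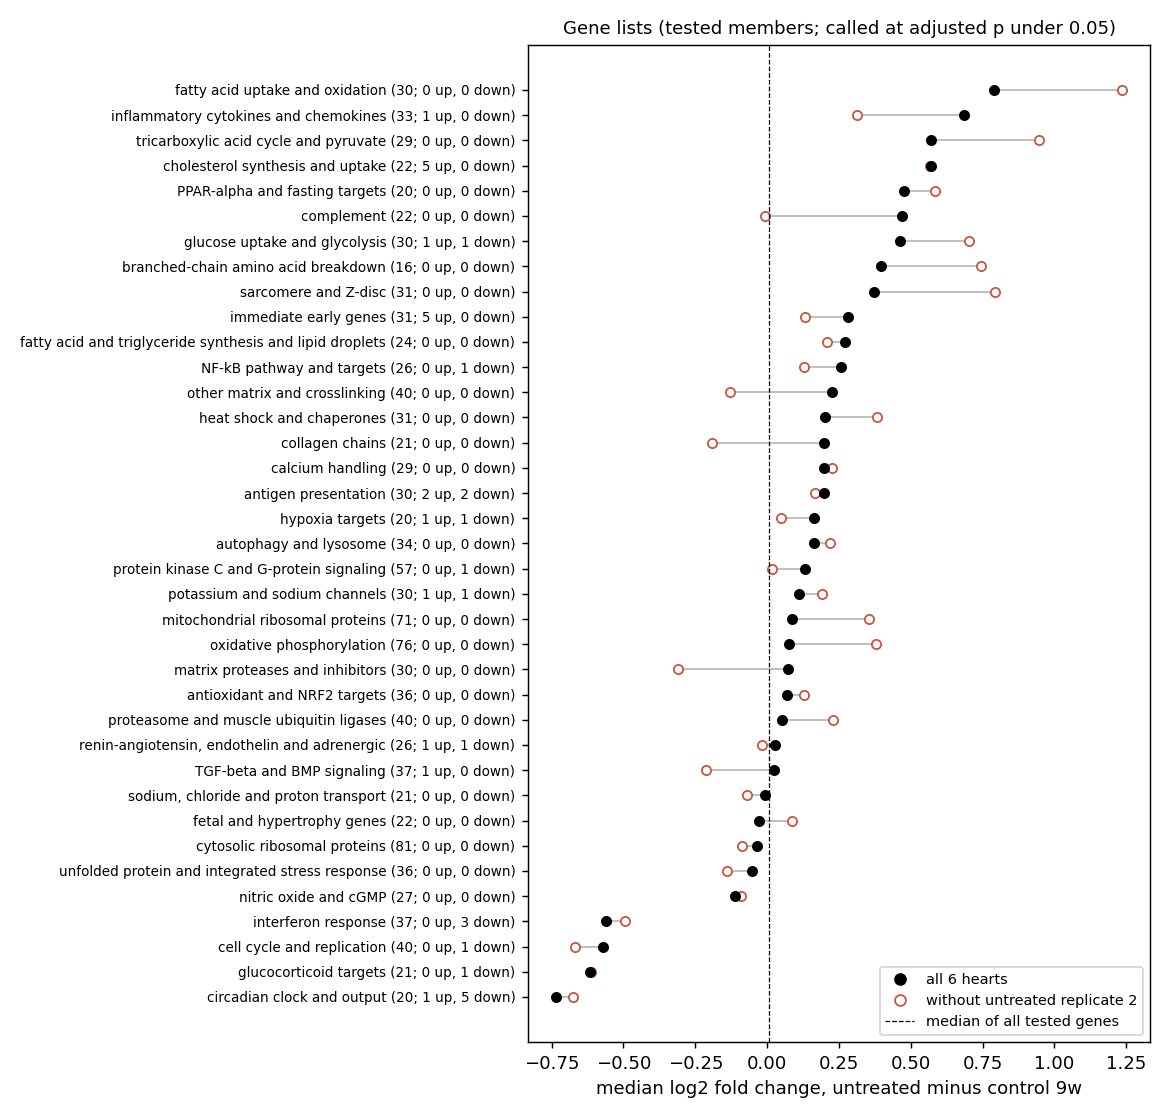
Median log2 fold change (untreated minus control 9w) of the tested members of each process list, with all 6 hearts (filled) and without untreated replicate 2 (open), beside the number of members tested and called in each direction. The dashed line is the median of all tested genes (0.01), and leaving out untreated replicate 2 moves, for example, fatty acid uptake and oxidation from 0.79 to 1.24.

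Beyond the lists, the largest rises among DEGs without overlap, after LOC100911498, included Slc27a2, a long-chain acyl-CoA synthetase. It had 0, 0 and 0 counts in control 9w and 59, 63 and 39 in untreated, at least 15.3-fold higher. Dntt, which adds bases at the joins of antigen receptor genes in developing lymphocytes, had 1, 1 and 1 counts against 35, 39 and 57, a ratio of CPM of 37.7 (95% counting interval 12.6 to 185). Both were at or near 0 in every control heart and present in every untreated heart. Bcl11b, a transcription factor of T cells, rose by 2.54 (SE 0.56) from 0.677, 0.492 and 1.595 CPM to 8.86, 3.65 and 4.11 CPM. Siglec10, an inhibitory receptor of leukocytes, rose by 2.87 (SE 0.62) from 1.02, 0.369 and 0.798 CPM to 3.904, 7.63 and 4.74 CPM. Dact2, a regulator of Wnt and TGF-beta signaling, rose by 2.64 (SE 0.63), with 1.58, 1.84 and 1.99 CPM against 4.33, 16.3 and 13.2 CPM. Wdr86, which overlaps Nub1 in the GRCr8 gene table, had 5, 0 and 2 counts against 23, 24 and 15 and rose by 2.89 (SE 0.68).

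The largest falls, after Ddx3, included Cyp1a1, the cytochrome induced by the aryl hydrocarbon receptor. It had 56, 39 and 15 counts in control 9w and 0, 0 and 0 in untreated, at least 14.4-fold lower, with control 9w replicate 3 the lowest control. Prom2, a membrane glycoprotein of epithelia, had 18, 53 and 25 counts against 1, 4 and 1 and fell by 4.20 (SE 0.94). Myo3b, a myosin with a kinase domain, had 45, 37 and 38 counts against 4, 3 and 2 and fell by 3.89 (SE 0.90). Atp1a4, a sodium pump subunit of sperm, had 17, 13 and 21 counts against 1, 4 and 2 and fell by 3.02 (SE 0.56). The untreated hearts lay below the controls in each of these genes, and all 4 had low counts. Ciart, Pfkfb1, Hbb-bs, Il9r, Per2, Rhd and Alas2, given above, completed the 12 largest falls.

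The effect at week 9 (untreated minus control 9w) differed from that at week 5 (HFpEF minus control 5w) in 2473 of the 12388 tested genes (20.0%, edgeR's test of the difference, adjusted p under 0.05). Genes named for their values at week 9 are favored to differ in this test, since the same values enter it. The comparisons at the 2 times share no library, and 2 of the 3 HFpEF hearts and all untreated hearts had no Eif2s3y counts while all controls had them.

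Some lists had medians of opposite sign at the 2 times. Interferon-response genes had a median of 0.78 at week 5 against −0.56 at week 9, and 19 of 37 differed. Irf7 had 0.78 (SE 0.31) at week 5 against −1.60 at week 9, with a difference of −2.37 (SE 0.44, adjusted p = 0.00371, edgeR with Benjamini-Hochberg). Glucocorticoid targets had a median of 1.88 at week 5 and −0.62 at week 9, and 16 of 21 differed, with Sgk1 at 2.12 (SE 0.22) and −0.89. Endothelial markers had medians of 0.78 and −0.33, and 10 of 17 differed, with Sox17 at 1.63 (SE 0.18) and −1.26. Lists of energy metabolism had medians below 0 at week 5 and above 0 at week 9, with unequal numbers of members that differed. The tricarboxylic acid cycle had −1.11 and 0.57, with 17 of 29 differing, and glycolysis had −0.87 and 0.46, with 19 of 30. Fatty acid uptake and oxidation had −0.52 and 0.79, with 6 of 30 differing, and oxidative phosphorylation had −0.55 and 0.08, with 4 of 76, which is no more than the 20.0% of all genes in either list. Ventricular cardiomyocyte markers went the same way, with medians of −1.28 and 0.34 and 4 of 12 differing, as did sarcomere and Z-disc genes, with −1.14 and 0.37 and 10 of 31, and their part in these values was not tested. For clock genes, the median was 0.07 at week 5 and −0.73 at week 9, and 8 of 20 differed. Per2 had 0.20 (SE 0.55) at week 5 against −2.94 at week 9, a difference of −3.14 (SE 0.79, adjusted p = 0.0147, same test). Insig1 had 0.16 (SE 0.17) at week 5 and 1.11 at week 9, a difference of 0.95 (SE 0.24, adjusted p = 0.0137, same test). Immediate early genes had medians of 1.30 and 0.28, and 13 of 31 differed. Nr4a1 had 2.17 (SE 0.32) at week 5 and 1.93 at week 9 (adjusted p of the difference = 0.731, same test), and Jun had 0.84 (SE 0.15) and 0.85, while Nr4a2 had 0.20 (SE 0.31) and 2.50 and differed by 2.31 (SE 0.43).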

How the data were processed

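The authors deposited raw counts per gene for each of the 19 libraries, and the sources name Trim Galore, FastQC, HISAT2 with the build rn6, HTSeq and DESeq2 for their processing. The overlap mode, strand setting and annotation of the counting are not given in the sources used here. From the deposited counts, genes were kept by filterByExpr and scaled by TMM, and all 7 groups were fitted in 1 model with edgeR 4.0.16 in R 4.3.3, without covariates. DESeq2 1.42.0, limma 3.58.1 (voom with sample quality weights), other scalings and filters, subsets of libraries, a replicate block and leaving out each heart were alternatives. The test was checked on simulated data. Genes were named by rule, as the 12 largest rises and falls among DEGs without overlap and with a mean of at least 1 CPM, the 3 members with the lowest p of each described list, the most abundant marker of a cell type, sex-linked genes with at least 100 counts, and genes named by the study. The members and the 57 lists were chosen with earlier results of these data known. Results for some of the genes named by this rule are not reported here.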

Additional observations from a re-analysis of the deposited data

Results flagged for a closer look

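The effect at week 9 (untreated minus control 9w), which also holds the split by sex-linked genes, differed from that at week 5 (HFpEF minus control 5w) in 2473 genes. This was by edgeR's test of the difference, at a Benjamini-Hochberg adjusted p under 0.05. Among the 107 genes named in the results, 62 differed, 36 with a lower and 26 with a higher log2 fold change at week 9. Many were named for their week 9 values, which enter the same test. The values in parentheses are the week 9 minus week 5 differences on the log2 scale, and those of genes at 0 counts in a group (Ddx3, Slc27a2, RT1-N2) are fitted values that depend on the prior count. The difference was negative for Ddx3 (−11.99), Prom2 (−5.95), Hba-a1 (−5.28), Rhd (−4.51), Pfkfb1 (−4.45), Ciart (−4.43), Hbb-bs (−4.38), Il9r (−4.28), Alas2 (−3.57), Nfkbia (−3.39), Timp4 (−3.33) and Hbb (−3.29). It was also negative for Oas2 (−3.21), Per2 (−3.14), Sgk1 (−3.02), Dpep1 (−2.95), Sox17 (−2.89), Dgkg (−2.47), Bcl6 (−2.37), Irf7 (−2.37), Per3 (−2.28), Adm (−2.06), RT1-S3 (−1.93) and RT1-CE10 (−1.90). It was also negative for Cdk17 (−1.70), Adcy4 (−1.58), Irf9 (−1.48), Tef (−1.43), Top2b (−1.34), Nos3 (−1.33), Kcnd3 (−1.30), Gstz1 (−1.26), Cpt1a (−1.23), Ptprb (−1.12), P4ha2 (−1.04) and Ccne2 (−0.96). The difference was positive for Tgfbr2 (0.72), Camk2d (0.90), Adcy9 (0.91), Insig1 (0.95), Cyp51 (1.000), Nfil3 (1.05), Rgs5 (1.07), Thbs2 (1.42), Suclg2 (1.64), Prkaca (1.66), Prkce (2.05) and Nr4a2 (2.31). It was also positive for Bcl11b (2.31), Ivd (2.34), Sdha (2.47), Wdr86 (2.63), Egln3 (2.77), Ogdh (3.07), Dact2 (3.07), Ndufs1 (3.39), Smyd1 (3.41), Hk2 (3.91), Kcnv2 (4.08) and RT1-N2 (5.48). It was also positive for Hcn4 (6.08) and Slc27a2 (10.47). With a term for Eif2s3y counts in the model, 1896 genes differed.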

How the results depend on the processing

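With 3 hearts a group, the number of calls depended on the fit. DEGs numbered 113 and genes by adjusted p alone 220, with 2473 for the difference from week 5. DESeq2 gave 298 DEGs and 824 genes, 219 of them among the 220, with 14 adjusted p-values NA, and limma-voom gave 1037, 5005 and, for the difference, 5923. Fitting only the libraries of the compared groups gave 140 genes, 70 of them among the 220, and a difference of 1580 genes, and only those of week 9 gave 125 genes, 99 of them among the 220, and 76 DEGs, of which 25% were higher. With the replicate block there were 62 DEGs and 99 genes, 98 of them among the 220. The main model did not pair hearts by replicate number. Same-numbered hearts of the 2 groups had correlations of −0.0792, −0.453 and −0.289 in their deviations from the group means. These values cannot show whether the hearts were paired in the experiment. With the Eif2s3y term there were 2 DEGs and 2 genes. Leaving out 1 heart gave 7 to 413 DEGs, 8 to 1015 genes and, for the difference, 1321 at the lowest and 3690 at the highest. Leaving out both untreated replicate 2 and control 9w replicate 3, chosen after seeing the data, gave 381 DEGs and 958 genes. The other scalings and filters kept DEG counts within 1.5 times.

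For the 62 called genes named, 644 of 1034 values kept direction and call, 388 lost the call and 2 changed sign. For the 45 others, 645 of 760 stayed as they were, 87 gained a call and 28 changed sign. Signs changed with the Eif2s3y term for LOC100911498 (−1.61), Eif2s3 (−0.0233), Eif2s3y (0.0765), S100b (−3.05), Pld1 (−0.41), Hsp90ab1 (−0.27), Ptprb (0.00273), Col1a1 (−0.52), Col3a1 (−0.47), Myh7 (−1.74) and Nos3 (0.35). Others changed without both untreated replicate 2 and control 9w replicate 3 for Dgka (−0.0768), Pld1 (−0.23), Pld2 (−0.18) and Nppb (0.32). Others changed with limma-voom for Pld1 (−0.14), Gsn (−0.0346), Col3a1 (−0.0500) and Nppb (0.13). Others changed with the replicate block for Myh7 (−0.10). Over the fits without 1 heart the value ranged across 0 for S100b (−0.16 to 1.27), Dgka (−0.0117 to 0.23), Pld1 (−0.29 to 0.23), Pld2 (−0.10 to 0.22), Myh6 (−0.0904 to 0.60), Nppa (−4.93 to 0.83), Col3a1 (−0.13 to 0.73), Nppb (−0.96 to 0.35) and Myh7 (−0.66 to 0.69). The cause was not tested. At 0.244 to 0.369 CPM for 3 counts, genes near that level cannot be resolved.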
